A study of Sus scrofa with 10 samples.

Results

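Genes for voltage-gated sodium channels, voltage-gated calcium channels, HCN channels, TRP channels and the calcium release channels of the endoplasmic reticulum were compared in the hypothalamus of pigs that diverge in growth and fatness. Members were the rows of the deposited table whose gene name is that of such a channel subunit (the SCN, CACNA1, CACNA2D, CACNB, CACNG, HCN, TRPC, TRPV, TRPM, TRPA1, RYR and ITPR names) and whose estimate was marked OK in both groups. This gave 66 of 25009 rows, with 62 gene names. None of the rows with these names lacked an OK estimate.

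Hypothalami came from 10 pigs of an Iberian x Landrace backcross, of which 5 were of high growth and fatness (called high pigs here) and 5 of low growth and fatness (low pigs). Both groups carry the same cross, and no treatment, age or sex was given in the sources used here. The table gives 1 FPKM value per gene row and group (a fragment count corrected for transcript length and library size) with a lower and an upper bound, printed in parentheses below. With 1 value per group there was no replicate check and no test, the spread among the 5 pigs of a group is not known, and the depth of each sample is unknown.

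These proteins set how a neuron fires and how calcium enters it. Sodium channel alpha subunits form the pore that carries the upstroke of the action potential, and beta subunits are small membrane proteins that alter gating and placement. Calcium channel alpha1 subunits form pores that open on depolarisation, whereas alpha2delta and beta proteins are auxiliary. The gamma family is counted with the auxiliary subunits here by its name, although some of its members are partners of AMPA receptors. HCN channels open on hyperpolarisation and help to pace firing. TRPC channels are cation channels opened downstream of receptor signalling, and in rodents some of them have been tied to the depolarisation of hypothalamic neurons by metabolic hormones. Ryanodine and IP3 receptors release calcium from the endoplasmic reticulum.

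Most pore-forming subunits (29 of 33 rows averaging 1 FPKM or more over the groups) had higher values in high pigs, and auxiliary subunits were split (7 of 16 rows). The difference between the kinds could not be tested with 1 value per group. Of the 49 channel rows at that level (45 gene names), 36 had their higher value in high pigs and 13 in low pigs. An FPKM ratio of at least 1.5 with the higher value in high pigs was found for 13 of the 49 rows, or 26.5%, against 3.25% of all 15281 rows at that level. A ratio of at least 1.5 in the other direction was found for 1 of the 49, or 2.04%, against 6.71% of all rows. The higher value lay in high pigs for 32.3% of all rows, against 73.5% of the channel rows. Scaling the groups to each other by the median of ratios evened out the background, to 4.73% of all rows higher and 4.70% lower by that ratio, and left 17 and 0 of the 49 channel rows, in that order.

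The deposited intervals of the 2 groups overlapped for every one of the 66 channel rows. They did not overlap for 0.458% of all rows averaging 1 FPKM or more and 0.289% of all rows with no filter on level. With shares so small, 0 channel rows is near the background and does not set the channels apart from other genes. No single channel gene therefore stood apart by its own bounds. The half-width of the interval had a median of 35.8% of the value in high pigs and 43.4% in low pigs over the 49 channel rows. Differences of about 1.5 times are within such bounds.

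On the scale of log2(FPKM + 1), the median difference, high minus low, was 0.24 over the 49 channel rows and -0.10 over all 15281 rows. The 33 pore-forming rows had a median of 0.33, with 29 higher in high pigs, 13 of them by at least 1.5 times and 0 lower by that much. The 16 auxiliary rows had a median of -0.06, with 7 higher in high pigs, 0 of them by at least 1.5 times, and 1 lower by that much. Of these 16 rows, 7 are of the gamma family, with 3 higher in high pigs. Both the auxiliary median and the 7 of 16 lie above the values of all rows, -0.10 and 32.3%. The median of all rows moved to about 0 when the groups were scaled to each other, and the auxiliary median then turned to 0.04 with 9 of 16 higher (median-of-ratios scaling) or 10 of 16 higher (quantile normalization), so its sign depends on the scaling. The pore-forming median was 0.42 after median-of-ratios scaling, with 32 of 33 higher.

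**Figure D1:**
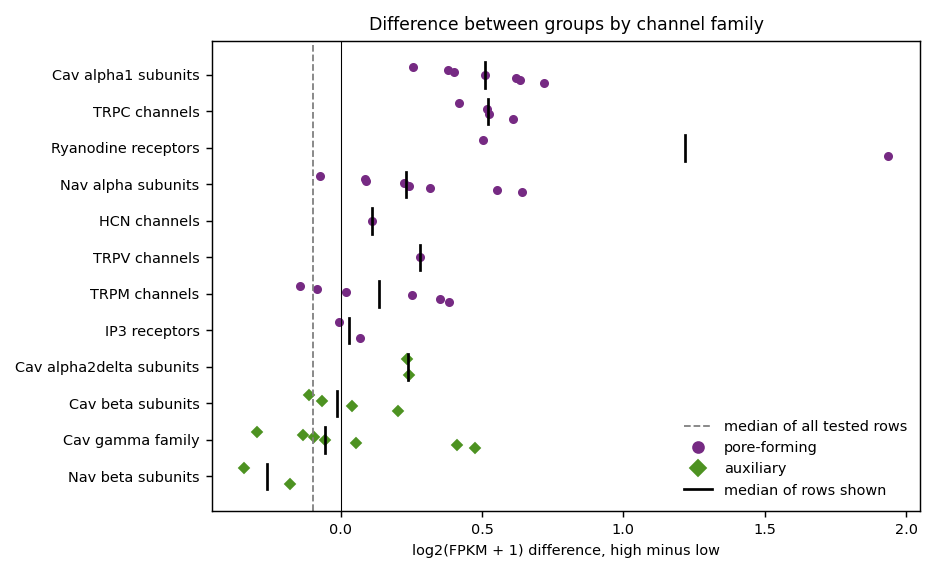
Difference between the groups on the log2(FPKM + 1) scale, high minus low, by family, for 46 channel rows averaging 1 FPKM or more. Points are rows and black bars the medians of the rows shown; the dashed line at -0.10 is the median of all 15281 rows. The 7 Cav alpha1 rows lie between 0.26 and 0.72 and the 4 TRPC rows between 0.42 and 0.61.

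All 7 tested rows of the calcium channel alpha1 subunits (6 gene names) had higher values in high pigs, 5 of them by at least 1.5 times. Their ratios ran from 1.29 to 1.78. CACNA1E, the R-type channel, was at 8.76 FPKM (6.14 to 11.4) in high pigs and 4.92 FPKM (2.99 to 6.86) in low pigs, a ratio of 1.78. Its lower bound in high pigs and its upper bound in low pigs overlapped by a narrow margin.

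CACNA1A, the P/Q-type channel of presynaptic terminals, has 2 rows in this annotation, both on chromosome 2 of build Sscrofa10.2. The row at 65921411 to 66176317 was at 12.4 FPKM (8.85 to 16.0) in high pigs and 7.64 FPKM (4.92 to 10.4) in low pigs. The row at 66221098 to 66237198 was at 14.1 FPKM (9.37 to 18.9) in high pigs and 8.84 FPKM (5.03 to 12.7) in low pigs. The 2 rows gave nearly the same ratio, 1.63 and 1.60, but they are pieces of 1 gene name and not independent of each other.

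Both neuronal L-type channels were also higher in high pigs. CACNA1D was at 4.83 FPKM (3.21 to 6.45) in high pigs and 3.10 FPKM (1.75 to 4.44) in low pigs. CACNA1C was at 1.70 FPKM (0.793 to 2.61) in high pigs and 1.08 FPKM (0.368 to 1.79) in low pigs. Their ratios, 1.56 and 1.58, were close to that of CACNA1A although CACNA1C was the lowest of the tested alpha1 genes.

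The T-type channels, which open at low voltage and serve burst firing, differed less. CACNA1G was at 6.03 FPKM in high pigs and 4.32 FPKM in low pigs (ratio 1.40), and CACNA1I at 2.56 FPKM in high pigs and 1.98 FPKM in low pigs (ratio 1.29). CACNA1S, the channel of skeletal muscle, and CACNA1F, the channel of the retina, were below 0.1 FPKM in both groups. The 6 tested alpha1 genes are all known from neurons, and each had its higher value in high pigs, with overlapping bounds.

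The sodium channel alpha subunits were led by SCN2A, an early and widespread brain channel. Its longer row was at 21.3 FPKM (15.3 to 27.2) in high pigs and 16.9 FPKM (11.1 to 22.8) in low pigs. The largest ratio was that of SCN9A, a channel best known from sensory neurons and also present in hypothalamic neurons of rodents, at 8.01 FPKM (5.55 to 10.5) in high pigs and 4.78 FPKM (2.82 to 6.74) in low pigs, a ratio of 1.68. SCN3A, a channel prominent before birth, was at 14.2 FPKM (10.2 to 18.3) in high pigs and 9.39 FPKM (6.01 to 12.8) in low pigs, a ratio of 1.52.

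Other sodium channel pores differed less. SCN8A, the main channel of mature axon initial segments, was at 5.11 FPKM in high pigs and 4.24 FPKM in low pigs. SCN1A has 2 rows, at 7.13 and 6.62 FPKM in high pigs and 7.55 and 6.15 FPKM in low pigs, so that 1 row had its higher value in each group. SCN7A, a channel tied to sodium sensing, was at 1.10 FPKM in high pigs and 0.979 FPKM in low pigs. SCN4A of skeletal muscle and SCN10A of sensory neurons were under 0.03 FPKM in both groups.

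The sodium channel beta subunits SCN2B and SCN4B had lower values in high pigs. SCN2B, the second highest member in level in both groups, was at 43.3 FPKM (31.1 to 55.5) in high pigs and 49.2 FPKM (32.0 to 66.3) in low pigs, a ratio of 0.881. SCN4B was at 2.68 FPKM (1.63 to 3.74) in high pigs and 3.67 FPKM (2.10 to 5.23) in low pigs, a ratio of 0.733. The 2 genes are neighbours on chromosome 9 (50492488 to 50539519).

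**Figure D2:**
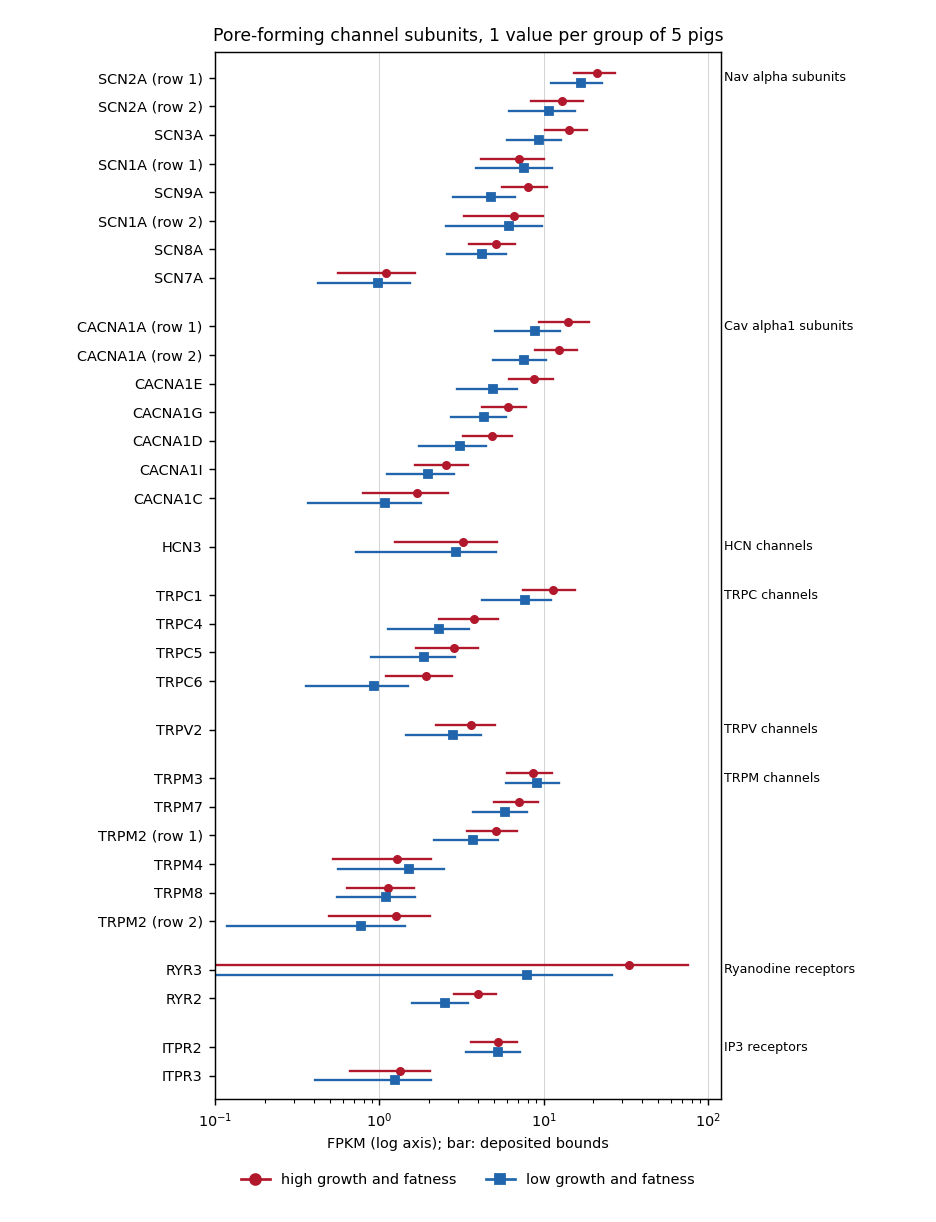
FPKM (log axis) of 31 pore-forming channel rows averaging 1 FPKM or more in high pigs (red circles, upper) and low pigs (blue squares, lower), 1 value per group of 5 pigs with the deposited bounds as bars. Row 1 and row 2 are separate rows with 1 gene name, and a bar that meets the left edge of the plot reaches 0 (RYR3). The high value lies to the right of the low value in 27 rows, and all bars of a pair overlap.

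The sodium channel pores show how the difference varied along 1 stretch of chromosome 15, where 7 member rows lie between 80065974 and 81569418. In that order the ratios were 1.52 for SCN3A, 1.26 for the longer SCN2A row, 0.944 and 1.08 for the SCN1A rows, 1.20 for the shorter SCN2A row, 1.68 for SCN9A and 1.12 for SCN7A. Of the 7 rows, SCN3A and SCN9A passed 1.5, and the intervals of all 7 overlapped between the groups. The shorter SCN2A row (81179593 to 81187165) lies beyond both SCN1A rows, away from the longer SCN2A row (80350971 to 80429109), so its name is uncertain.

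Auxiliary calcium channel subunits ranged widely in level, and none reached a ratio of 1.5 in either direction among the tested rows. CACNA2D1, the gabapentin-binding alpha2delta subunit, was at 24.7 FPKM (17.7 to 31.6) in high pigs and 20.7 FPKM (13.5 to 27.9) in low pigs. CACNA2D2 was at 17.8 FPKM (12.8 to 22.8) in high pigs and 15.0 FPKM (9.68 to 20.2) in low pigs. Both ratios were 1.19. A row that carries no name in the table but is CACNA2D3 in the reference name table, and so is no member, was at 12.3 FPKM in high pigs and 9.10 FPKM in low pigs.

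The beta subunits, which bring alpha1 to the membrane, had ratios on either side of 1. CACNB1 was at 17.7 FPKM (12.6 to 22.8) in high pigs and 17.2 FPKM (11.2 to 23.1) in low pigs. CACNB3 was at 18.9 FPKM (13.3 to 24.5) in high pigs and 20.5 FPKM (13.4 to 27.7) in low pigs, but the identifier of that row belongs to DDX23 in the reference name table, so its value is uncertain. CACNB2 was at 6.66 FPKM in high pigs and 7.02 FPKM in low pigs. CACNB4 was at 7.09 FPKM in high pigs and 6.02 FPKM in low pigs.

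Of the gamma family, CACNG7, a protein that also binds AMPA receptors, had the highest level of all members, at 49.3 FPKM (35.2 to 63.4) in high pigs and 60.8 FPKM (39.8 to 81.8) in low pigs. CACNG4, another AMPA receptor partner, was at 9.03 FPKM (6.18 to 11.9) in high pigs and 9.41 FPKM (5.92 to 12.9) in low pigs. CACNG5 was at 5.71 FPKM in high pigs and 3.83 FPKM in low pigs. CACNG2 (stargazin) was at 4.63 FPKM in high pigs and 3.23 FPKM in low pigs. These 2 genes, with ratios of 1.49 and 1.43, were the auxiliary members with the largest differences towards high pigs.

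The other tested gamma genes had ratios from 0.880 to 1.04. CACNG8 was at 6.60 FPKM in high pigs and 6.32 FPKM in low pigs. CACNG3 was at 4.74 FPKM in high pigs and 5.12 FPKM in low pigs, and CACNG6 at 2.38 FPKM in high pigs and 2.70 FPKM in low pigs. CACNG1 of skeletal muscle was under 0.03 FPKM in both groups. CACNG5 and CACNG4 are neighbours on chromosome 12, with ratios of 1.49 and 0.960, and CACNG7, CACNG8 and CACNG6 are neighbours on chromosome 6, with ratios of 0.811, 1.04 and 0.880.

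**Figure D3:**
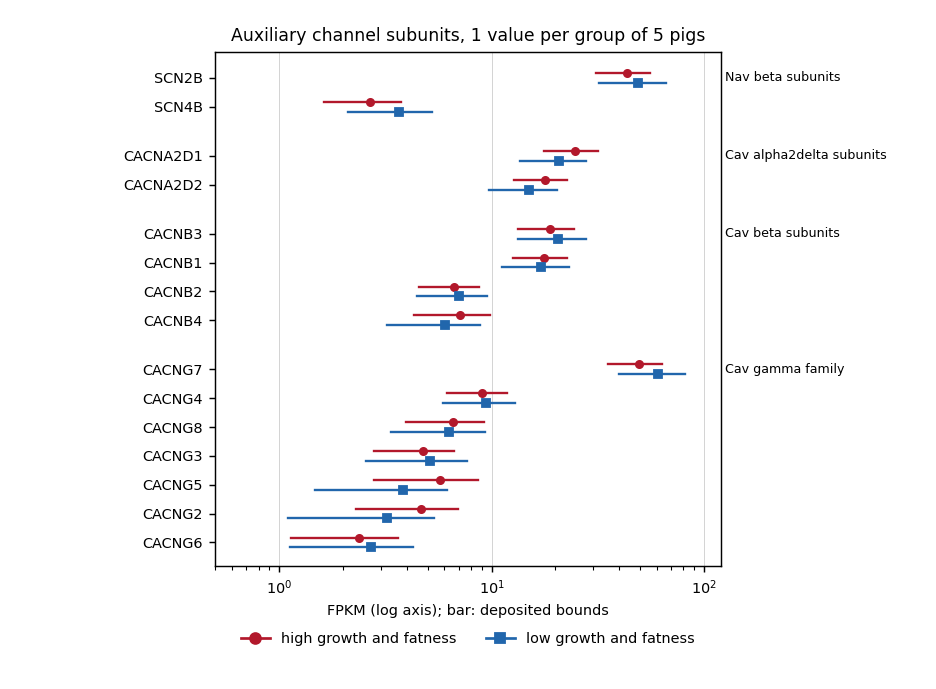
FPKM (log axis) of 15 auxiliary subunit rows in high pigs (red circles, upper) and low pigs (blue squares, lower), with the deposited bounds as bars. The bars of every pair overlap, and the largest values are those of CACNG7, with 49.3 FPKM in high pigs and 60.8 FPKM in low pigs.

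All 4 tested TRPC genes had higher values in high pigs, 3 of them by at least 1.5 times. TRPC1, the most abundant, was at 11.5 FPKM (7.47 to 15.4) in high pigs and 7.69 FPKM (4.23 to 11.1) in low pigs, a ratio of 1.49. TRPC4 was at 3.78 FPKM (2.31 to 5.24) in high pigs and 2.32 FPKM (1.13 to 3.52) in low pigs, a ratio of 1.63.

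TRPC5, which in mice acts in the leptin response of POMC neurons, was at 2.84 FPKM (1.68 to 4.01) in high pigs and 1.88 FPKM (0.886 to 2.87) in low pigs, a ratio of 1.51. TRPC6 was at 1.93 FPKM (1.09 to 2.77) in high pigs and 0.922 FPKM (0.358 to 1.49) in low pigs, a ratio of 2.10. TRPC6 reached a mean of 1 FPKM through high pigs alone.

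TRPM channels were mixed. TRPM3, a heat- and steroid-sensitive channel, was at 8.60 FPKM (6.002 to 11.2) in high pigs and 9.16 FPKM (5.88 to 12.4) in low pigs. TRPM7, a channel joined to a kinase, was at 7.10 FPKM (5.005 to 9.20) in high pigs and 5.80 FPKM (3.73 to 7.88) in low pigs. TRPM4, a calcium-activated channel, was at 1.28 FPKM in high pigs and 1.52 FPKM in low pigs. TRPM8, the cold sensor, was at 1.13 FPKM in high pigs and 1.10 FPKM in low pigs.

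The name TRPM2, an oxidant-sensitive channel also tied to warmth sensing in the mouse hypothalamus, stands on 2 rows. The row on chromosome 13 (217096221 to 217136916) was at 5.15 FPKM (3.41 to 6.88) in high pigs and 3.72 FPKM (2.16 to 5.27) in low pigs. The row on chromosome 2 (143969146 to 144151822) was at 1.26 FPKM (0.490 to 2.03) in high pigs and 0.771 FPKM (0.119 to 1.42) in low pigs, and the reference name table gives its identifier the name TRPC7. It is counted here under the name in the table, and its ratio of 1.64 is that of a row of uncertain name that reached the level filter through high pigs.

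Among the other sensory TRP channels, TRPV2 was the only tested member, at 3.63 FPKM (2.21 to 5.06) in high pigs and 2.81 FPKM (1.45 to 4.17) in low pigs. TRPV1, the capsaicin receptor, was at 0.0634 FPKM in high pigs and 0.0611 FPKM in low pigs, and the lower bound was 0 in both. TRPV4, an osmotically sensitive channel, was at 0.0529 FPKM in high pigs and 0.110 FPKM in low pigs. TRPA1, the irritant receptor, was at 0.465 FPKM in high pigs and 0.377 FPKM in low pigs. TRPV3, TRPV5, TRPV6 and TRPM1 were below 0.3 FPKM in both groups.

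Of the HCN channels, HCN3 was at 3.22 FPKM (1.25 to 5.20) in high pigs and 2.91 FPKM (0.718 to 5.10) in low pigs, a ratio of 1.11. HCN4, the main pacemaker channel of the heart, was at 0.652 FPKM (0.306 to 0.998) in high pigs and 0.690 FPKM (0.285 to 1.10) in low pigs. The intervals of both overlapped between the groups.

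All 3 ryanodine receptors had higher values in high pigs. RYR2 was at 3.99 FPKM (2.84 to 5.15) in high pigs and 2.53 FPKM (1.59 to 3.46) in low pigs, a ratio of 1.58. RYR1, best known from skeletal muscle, was at 1.02 FPKM (0.660 to 1.38) in high pigs and 0.450 FPKM (0.229 to 0.672) in low pigs, a ratio of 2.26 below the level filter. Of the 2 intervals of RYR1, only the edges overlapped.

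The largest ratio of all members, 4.18, was that of RYR3, and it carries the least weight. Its row is a piece of 121 bases on chromosome 7 (86953729 to 86953849), at 33.3 FPKM (0 to 76.0) in high pigs and 7.96 FPKM (0 to 26.1) in low pigs. Without it, 12 of 48 channel rows had a ratio of at least 1.5 towards high pigs.

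The IP3 receptors, the other calcium release channels, were even. ITPR2 was at 5.25 FPKM (3.61 to 6.89) in high pigs and 5.27 FPKM (3.37 to 7.18) in low pigs. ITPR3 was at 1.34 FPKM (0.658 to 2.03) in high pigs and 1.24 FPKM (0.406 to 2.07) in low pigs. A row named ITPR1 only by the reference name table, and so no member, was at 3.98 FPKM in high pigs and 3.57 FPKM in low pigs.

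The 17 members below a mean of 1 FPKM included RYR1, HCN4, TRPM6, TRPA1 and 12 rows under 0.3 FPKM in both groups. Of these 17, 7 had their higher value in high pigs, and 10 were under 0.1 FPKM in both groups. Over all 66 members, 43 had their higher value in high pigs, or 65.2%, against 31.1% of all rows with no filter on level. Ratios of at least 1.5 towards high pigs numbered 17 of 66 against 8.13% of all rows, and those towards low pigs 3 of 66 against 11.3% of all rows. Of the 49 tested members, 4 (among them TRPC6, the chromosome 2 TRPM2 row and SCN7A) were above 1 FPKM in high pigs and below it in low pigs, and 0 the other way round.

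Partners of these channels and other cation channels, 97 gene names in 6 lists written with earlier results of these data known, were described in the same way. Of their 70 tested rows, 32 had their higher value in high pigs, against 32.3% of all rows. A ratio of at least 1.5 towards high pigs was found for 6 of the 70, against 3.25% of all rows, and one towards low pigs for 4, against 6.71%. Sodium channel partners had 7 of 11 rows higher and a median of 0.02. They include the ankyrins, which anchor channels at the axon, and the FGF11 to FGF14 family, which bind the channel tail. The 2 ankyrins went opposite ways. ANK2 was at 38.2 FPKM in high pigs and 30.6 FPKM in low pigs. ANK3 was at 19.5 FPKM in high pigs and 21.0 FPKM in low pigs. Calcium store partners, which refill or sense the endoplasmic reticulum, had 6 of 24 rows higher and a median of -0.13, with the store sensor STIM1 at 14.5 FPKM in high pigs and 15.6 FPKM in low pigs.

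A few partners differed by at least 1.5 times. PEX5L, the brain protein that binds the tail of HCN channels and controls their trafficking, was at 10.2 FPKM in high pigs and 15.9 FPKM in low pigs. UNC80, a subunit of the NALCN sodium leak channel, was at 10.6 FPKM in high pigs and 6.96 FPKM in low pigs, while the pore NALCN was at 19.1 FPKM in high pigs and 18.6 FPKM in low pigs. RIMBP2, which couples calcium channels to vesicle release sites, was at 5.52 FPKM in high pigs and 3.58 FPKM in low pigs.

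The calcium channel partner STAC was at 1.86 FPKM in high pigs and 1.15 FPKM in low pigs. REM1, a row named by the reference name table, was at 1.32 FPKM in high pigs and 0.754 FPKM in low pigs. This row reached a mean of 1 FPKM through high pigs alone. Another row of REM1, below that level, was at 0.201 FPKM in high pigs and 0.167 FPKM in low pigs. RRAD and REM2, small GTPases like REM1 that inhibit calcium channels, were lower in high pigs. RRAD was at 2.06 FPKM in high pigs and 3.32 FPKM in low pigs, and REM2 at 2.33 FPKM in high pigs and 3.54 FPKM in low pigs. JPH2, a junction protein of muscle, was at 0.900 FPKM in high pigs and 1.55 FPKM in low pigs.

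**Figure D4:**
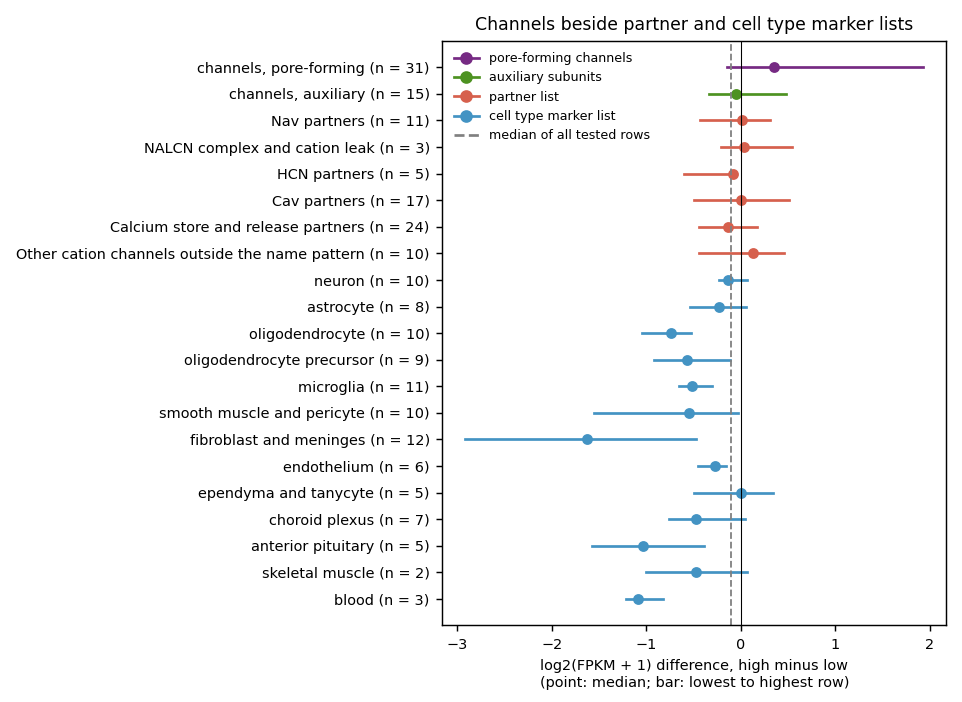
Median (point) and range from the lowest to the highest row (bar) of the log2(FPKM + 1) difference, high minus low, for pore-forming and auxiliary channel rows, partner lists and cell type marker lists. The 31 pore-forming rows drawn have a median of 0.35, the neuron markers -0.13 and the fibroblast and meninges markers -1.63; the dashed line at -0.10 is the median of all rows.

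Markers of cell types moved with the groups, and their part in the channel values was not tested. The 10 tested general neuron markers had a median of -0.13 and a range from -0.23 to 0.07, with 2 higher in high pigs, and their summed level was 2031 FPKM in high pigs and 2180 FPKM in low pigs. Synaptic SNAP25 was at 394 FPKM in high pigs and 461 FPKM in low pigs. The median of the neuron markers lies near that of all rows, -0.10, of which 32.3% were higher in high pigs. The markers RBFOX3 and ELAVL4 were not analysed here.

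Glial, vascular and other non-neuronal lists were mostly lower in high pigs. Oligodendrocyte markers had 0 of 10 rows higher, a median of -0.74 and a summed level of 3140 FPKM in high pigs and 4887 FPKM in low pigs. Microglial markers had 0 of 11 higher, with sums of 436 FPKM in high pigs and 625 FPKM in low pigs. Astrocyte markers had 1 of 8 higher, with sums of 2773 FPKM in high pigs and 3473 FPKM in low pigs. Endothelial markers had 0 of 6 higher and a median of -0.27. Oligodendrocyte precursor markers had 0 of 9 higher and a median of -0.57, with 5 lower by at least 1.5 times, against 6.71% of all rows. Of all tested rows, 32.3% had their higher value in high pigs and the median was -0.10. Against that share, a count of 0 among 6 rows says little by itself. In bulk tissue, fewer cells of a type and less RNA per cell cannot be told apart.

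Lists of meningeal, smooth muscle, pituitary, choroid plexus and blood genes were lower in high pigs too, and the ependymal and tanycyte list was mixed. Fibroblast and meningeal markers, 4 of which (COL3A1, CRABP2, ISLR and SLC22A8) were put in the list with their values known, had 0 of 12 rows higher and sums of 70.4 FPKM in high pigs and 233 FPKM in low pigs. Smooth muscle and pericyte markers had 0 of 10 higher, anterior pituitary markers 0 of 5, choroid plexus markers 1 of 7 and blood markers 0 of 3. Against 32.3% of all tested rows, the counts of the shortest of these lists say little by themselves. Ependymal and tanycyte markers had 3 of 5 higher and a median of 0.008, but sums of 268 FPKM in high pigs and 355 FPKM in low pigs. Because FPKM is relative to the whole library, a lower share of these RNAs in high pigs and a higher share of others cannot be told apart from these values.

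Skeletal muscle and sensory neuron markers were included because RYR1, SCN4A, CACNA1S, SCN9A and SCN10A are best known from those tissues. Of the 6 muscle markers with a row, 1 had its higher value in high pigs, against 31.1% of all rows with no filter on level. This was the myosin MYH7, at 2.48 FPKM in high pigs and 2.31 FPKM in low pigs. The muscle actin ACTA1, the other muscle marker averaging 1 FPKM or more, was at 2.08 FPKM in high pigs and 5.19 FPKM in low pigs. The muscle enzyme CKM was at 0.101 FPKM in high pigs and 0.962 FPKM in low pigs. The part of muscle tissue in the value of RYR1 was not tested. Of the 4 sensory neuron markers matched to a row, ISL1, which hypothalamic neurons also express, was the only one above 1 FPKM, at 4.61 FPKM in high pigs and 3.30 FPKM in low pigs. Among the others, POU4F1 and PRDM12 were under 1 FPKM in both groups.

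Locus length, which the choice of members did not use, varied from 0.121 to 483 kb among the tested members. The pore-forming rows covered a median of 86.7 kb, the auxiliary rows 21.3 kb and all tested rows 19.4 kb. Over all rows the median difference was -0.12 for loci under 10 kb and -0.04 for loci over 200 kb, and the share higher in high pigs was 30.2% and 43.7%, in the same order of length. Among the 16 channel rows over 100 kb, 9 had a ratio of at least 1.5 towards high pigs and the median was 0.46, whereas all 1925 rows over 100 kb had a median of -0.06 and 2.86% with that ratio.

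**Figure D5:**
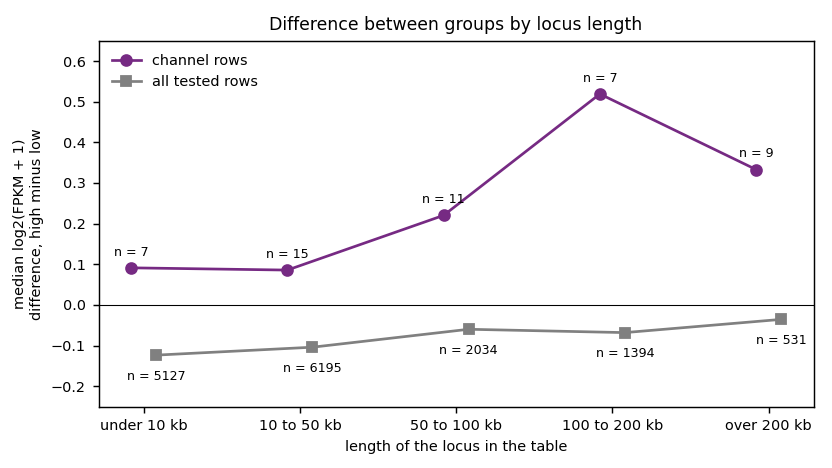
Median log2(FPKM + 1) difference, high minus low, by the length of the locus in the table, for the channel rows (purple circles) and all tested rows (grey squares), with the number of rows beside each point. Channel medians lie between 0.09 and 0.52 and those of all rows between -0.12 and -0.04.

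Of the 9 channel rows over 200 kb, 7 had their higher value in high pigs, against 43.7% of all rows of that length. A ratio of at least 1.5 towards high pigs was found for 4 of the 9, against 3.39% of all such rows. These 4 were CACNA1E (359 kb, ratio 1.78), RYR2 (366 kb, 1.58), CACNA1A (255 kb, 1.63) and TRPC4 (211 kb, 1.63). CACNA2D1 (483 kb) had a ratio of 1.19, SCN8A (207 kb) of 1.21, ITPR2 (426 kb) of 0.996 and TRPM3 (286 kb) of 0.938. The part of locus length, or of transcript length, which the table does not give, in the channel values was not tested.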

How the data were processed

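RNA-seq of 10 pig hypothalami was deposited as 1 table. The submitters' processing notes name Cufflinks 2.0.2 and TopHat2 2.0.5, with Bowtie2, Trim Galore, FastQC and CASAVA, and the build Sscrofa10.2; their settings are not given in the sources used here. The authors deposited FPKM, fragments per kilobase of transcript scaled to library size, for each row in both groups, together with bounds below and above it, per the file headers. The level of these bounds is not stated. Single animals were not analysed here, so no limma fit or paired fit could be made.

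Rows marked OK in both groups were used (58 of 25009 were not), at an average of 1 FPKM or more for counts. Differences are log2(FPKM + 1), which understates low genes. Rows were called at an FPKM ratio of 1.5 or by intervals that do not overlap, with Python 3.11.15 and pandas 2.3.3. The code of the calls was checked on simulated rows with intervals narrower than is usual here. Over all tested rows the median half-width was 39.3% in high pigs and 45.1% in low pigs. That check therefore does not show which differences the interval call can find in these data. Depth is unknown. The members and lists were chosen with earlier results of these data known. Every member may be named, and partners are named at a ratio of 1.5. Outside that rule, ANK2, ANK3, STIM1, NALCN, SNAP25 and the muscle and sensory markers were named after their values were seen. The partner-list genes PKD2, TPCN1, MCOLN1, ASIC1 and HVCN1 are also named although they did not reach that ratio. Of the 66 members, 51 carry the same symbol in the reference name table, 13 no symbol there and 2 another symbol. The genes CACNA1B, CACNA1H, HCN2, SCN3B, TRPC7 and TRPM5 are not analysed here under their own names. Alternatives were other filters, pseudocounts (0.1 and 0.5), scalings, 1 row per symbol and a ratio of 2. Some members are counted but not reported by name here. No sequences were used.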

Additional observations from a re-analysis of the deposited data

How the results depend on the processing

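The count of channel rows at least 1.5 times higher in high pigs, 13 of 49, was 17 of 66 with no filter, 17 of 49 after median-of-ratios scaling, 16 of 49 after quantile normalization, 11 of 44 with a single row per symbol (placed chromosomes) and 12 of 48 without the RYR3 row, an alternative added after the data were seen. It was 6 of 26 when rows had to average 5 FPKM, which leaves fewer rows, and 2 (TRPC6 and RYR3) at a ratio of at least 2. The background of all rows was then 8.13%, 4.73%, 4.29%, 2.97%, 3.25%, 1.97% and 1.32%, in that order. The count at least 1.5 times lower, 1, was 3 with no filter, 0 after either scaling and 0 at a ratio of at least 2. The share of all rows lower was then 11.3% with no filter and 4.70% after median-of-ratios scaling. It was 4.88% after quantile normalization and 2.44% at a ratio of at least 2, so a count of 0 among 49 rows is near these shares. The median difference of 0.24 became 0.087 with no filter, where members near 0 FPKM enter, 0.34 after median-of-ratios scaling and 0.32 after quantile normalization. Both scalings shift all rows towards high pigs, and for the other changes the cause was not tested. The median was 0.22 to 0.27 under the 5 FPKM filter, other pseudocounts, 1 row per symbol and without RYR3. No channel row had intervals that did not overlap under any filter or scaling run. No paired analysis was possible because the table gives 1 value per group; leaving out single pigs was not run for the same reason. The effect of sequencing depth could not be assessed without counts.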

Other observations

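Cation channels outside the families above were also measured, in a list of 27 genes. Of the 10 tested rows, 8 had their higher value in high pigs, against 32.3% of all rows, and 2 were higher by at least 1.5 times, against 3.25% of all rows. The median log2 difference was 0.13, against -0.10 over all rows. PKD1, the polycystin that pairs with the channel PKD2, was at 3.95 FPKM in high pigs and 2.60 FPKM in low pigs. CATSPER1, the sperm calcium channel, has a row at 3.18 FPKM in high pigs and 2.06 FPKM in low pigs. PKD2 was at 23.7 FPKM in high pigs and 21.3 FPKM in low pigs. The lysosomal channels TPCN1 and MCOLN1 were at 11.2 and 8.14 FPKM in high pigs and 10.8 and 9.82 FPKM in low pigs. The acid-sensing channel ASIC1 was at 5.24 FPKM in high pigs and 4.77 FPKM in low pigs. The proton channel HVCN1, best known from immune cells, was at 5.92 FPKM in high pigs and 8.36 FPKM in low pigs. The microglial list had 0 of 11 rows higher, against 32.3% of all rows, and the part of microglia in the HVCN1 value was not tested.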
